A study of Mus musculus with 6 samples.

Results

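The peaks described here are the autosomal Grhl3 peaks that scored higher than any peak of the imiquimod list. They are called extreme-score peaks. The score is the authors' own value for each peak, and its definition was not found in the labels or headers. Peaks were chosen by this score: a peak belonged to the set when it lay on chromosomes 1 to 19 and scored above 249.45 in either E16.5 list or in the depilation list. This choice gave 212 of the 25660 autosomal peaks of these 3 lists. E16.5 replicate 1 supplied 148 of its 11432 autosomal peaks, E16.5 replicate 2 supplied 32 of 9479, and depilation supplied 32 of 4749. The score chose the peaks, so their scores and widths are given as descriptions, without a test.

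Chromatin immunoprecipitation and sequencing (ChIP-seq) with a custom Grhl3 antibody gave 1 peak list for each of 4 libraries. The embryonic group is whole skin from the backs of mice at E16.5 with 2 replicates, and the labels do not say whether these are separate animals. The adult groups are epidermis freed from dermis with dispase, with 1 library labelled day 4 of depilation and 1 from an imiquimod experiment. Labels give the mice no strain, genotype or exact adult age and no dose or duration of the imiquimod treatment. All 4 libraries used the same antibody and the labels give 28 µg of chromatin for each. The 2 input libraries, 1 embryonic and 1 adult, were not analysed here, and the depth of each library is unknown. With 1 library for each adult condition, differences between lists have no replicate check and compare lists, not conditions.

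Grhl3 belongs to the grainyhead-like transcription factors. It binds DNA directly and is known for driving the formation of the epidermal barrier in the embryo and for its part in wound repair. Grainyhead-like factors usually act at enhancers and promoters spread over the genome. Ribosomal RNA genes and satellite repeats are different: they exist in many copies, of which a genome assembly holds few. Places of that kind are known to collect reads in ChIP-seq libraries of many factors and in inputs. Which of the loci below hold such sequence was not checked, because no mm9 sequence or annotation was used here. The loci are therefore named by chromosome and position on mm9, counted from 1, without a gene, exon or repeat name.

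The extreme-score peaks were divided between 3 clusters and a large number of isolated loci. The clusters are regions fixed along with the choice of peaks and were not found by a search. Peaks that overlapped or lay within 10 kb of each other were joined, which gave 182 loci. Of the 212 peaks, 24 lay in the clusters on chromosomes 17, 2 and 9, which held 5, 6 and 13 of them. These counts add up the lists, so a place that recurs is counted once per list. On chromosome 17 depilation had only 2 peaks. The other 188 peaks formed 178 loci outside the clusters. These are called isolated, although some of them join several peaks. An extreme-score peak stood alone at 169 of the 182 loci, and the median gap between neighbouring loci was 7800265 bp. The 3 lists divided unequally between the 2 settings. Of the depilation peaks, 19 of 32 lay in the clusters, against 4 of 32 in E16.5 replicate 2 and 1 of 148 in E16.5 replicate 1. Chromosome 9 alone held 15 of the 32 depilation peaks, or 46.9%, while it held 6.06% of all autosomal depilation peaks. Outside the clusters the peaks had few neighbours. No second peak of the same list lay within 10 kb for 122 of 147 peaks in E16.5 replicate 1 (83.0%), close to the 81.1% over all its autosomal peaks.

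The chromosome 17 cluster was made of a pair of adjoining peaks that recurred in the 3 lists. The larger lay at chr17:39979845-39983768 in E16.5 replicate 1 with a score of 665.75, at chr17:39979912-39983765 in E16.5 replicate 2 with 3100, and at chr17:39979927-39983720 after depilation with 3100. These were the 3 widest extreme-score peaks, at 3924, 3854 and 3794 bp. The next in width were 2 peaks of E16.5 replicate 1, with 2434 bp at chr7:91030734-91033167 and 2335 bp at chr5:43624118-43626452. The smaller peak of the pair scored 1051.65 at chr17:39984447-39985800 in E16.5 replicate 2 and 1782.3 at chr17:39984376-39985809 after depilation. In E16.5 replicate 1 the peak there, at chr17:39984349-39985835, scored 178.49 and so lay below the threshold. A score of 3100 is the highest in any list and stood at 3 extreme-score peaks in all. Whether 3100 is an upper limit of the score is not known, so peaks at that value cannot be ranked. The imiquimod list held 0 peaks in this cluster, and its nearest peak was 416832 bp away.

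The chromosome 2 cluster held 4 peaks after depilation, and all 4 were extreme. They lay at chr2:98502352-98503189 with a score of 2952.32, at chr2:98503756-98504282 with 831.94, at chr2:98505011-98505419 with 609.59 and at chr2:98506374-98507518 with 3100. E16.5 replicate 2 had the same 4 peaks, but only the outer 2 were extreme. The outer peaks scored 709.86 at chr2:98502351-98503176 and 1293.41 at chr2:98506372-98507523, and the inner ones 129.06 and 117.24. E16.5 replicate 1 had the outer 2 alone, with scores of 114.12 and 218.57, and no extreme peak. The order of the 3 lists by score was thus the same at both outer peaks, with depilation highest and E16.5 replicate 1 lowest.

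Imiquimod gave 1 peak in the chromosome 2 cluster, at chr2:98503765-98504326, over the inner depilation peak that scored 831.94. Its score was 59.77. It held 599 tags, the most of any of the 7949 autosomal imiquimod peaks, whose median was 29. Its fold enrichment of 2.06 was the lowest of all of them, against a median of 6.65, and its FDR was 6.69%. The imiquimod peak with the most tags was thus the one with the lowest fold enrichment. The other 5 extreme-score peaks of the cluster lay 576 to 2048 bp from the imiquimod peak.

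The chromosome 9 cluster was extreme in the depilation list alone. Depilation gave 40 peaks between 2999986 and 3038330, of which 13 were extreme, with scores from 255.23 to 783.36. E16.5 replicate 2 gave 17 peaks there with scores from 50.34 to 232.87, and E16.5 replicate 1 gave 0. Each of the 17 replicate 2 peaks was overlapped by a depilation peak. The best scored 783.36 at chr9:3025260-3025684, where E16.5 replicate 2 scored 232.87. It was followed by chr9:3035672-3036142 with 724.62 against 113.63, and by chr9:2999986-3000294 with 643.48 against 188.57.

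The next 4 extreme peaks on chromosome 9 also had a counterpart in E16.5 replicate 2. The peak at chr9:3030117-3030304 scored 510.95 against 151.79, and the peak at chr9:3022063-3022264 scored 432 against 91.08. Those at chr9:3027081-3027211 and chr9:3023380-3023588 scored 406.69 and 402.19, against 50.96 and 98.9. On chromosome 9 the higher score after depilation follows from the choice of peaks, since no replicate 2 peak there reached the threshold. At chr9:3002080-3002610 a depilation peak of 304.52 spanned a pair of replicate 2 peaks, of which the better scored 107.3. At chr9:3036281-3036623 the scores were 277.08 and 59.56. The other 4 had no counterpart in E16.5 replicate 2. They scored 299.97 at chr9:3004461-3004641, 280.35 at chr9:3026598-3027019, 266.13 at chr9:3000350-3000738 and 255.23 at chr9:3015238-3015386.

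Imiquimod peaks were interleaved with the depilation peaks on chromosome 9. Of the 40 depilation peaks there, 2 were overlapped by an imiquimod peak, against 26.6% of all autosomal depilation peaks. The imiquimod list held 9 peaks in the cluster, from 3000597 to 3037666, with scores of 53.33 to 104.51. Of these, 2 overlapped a depilation peak and 0 overlapped a peak of E16.5 replicate 2. The same shares over all imiquimod peaks were not computed. Only the extreme depilation peak that scored 266.13 was touched, by an imiquimod peak of 98 tags and a fold enrichment of 3.03. The other 12 extreme peaks lay 303 to 4386 bp from the nearest imiquimod peak. Over the 9 imiquimod peaks the median was 62 tags and the median fold enrichment 4.43, against 29 tags and 6.65 in the whole list.

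**Figure D1:**
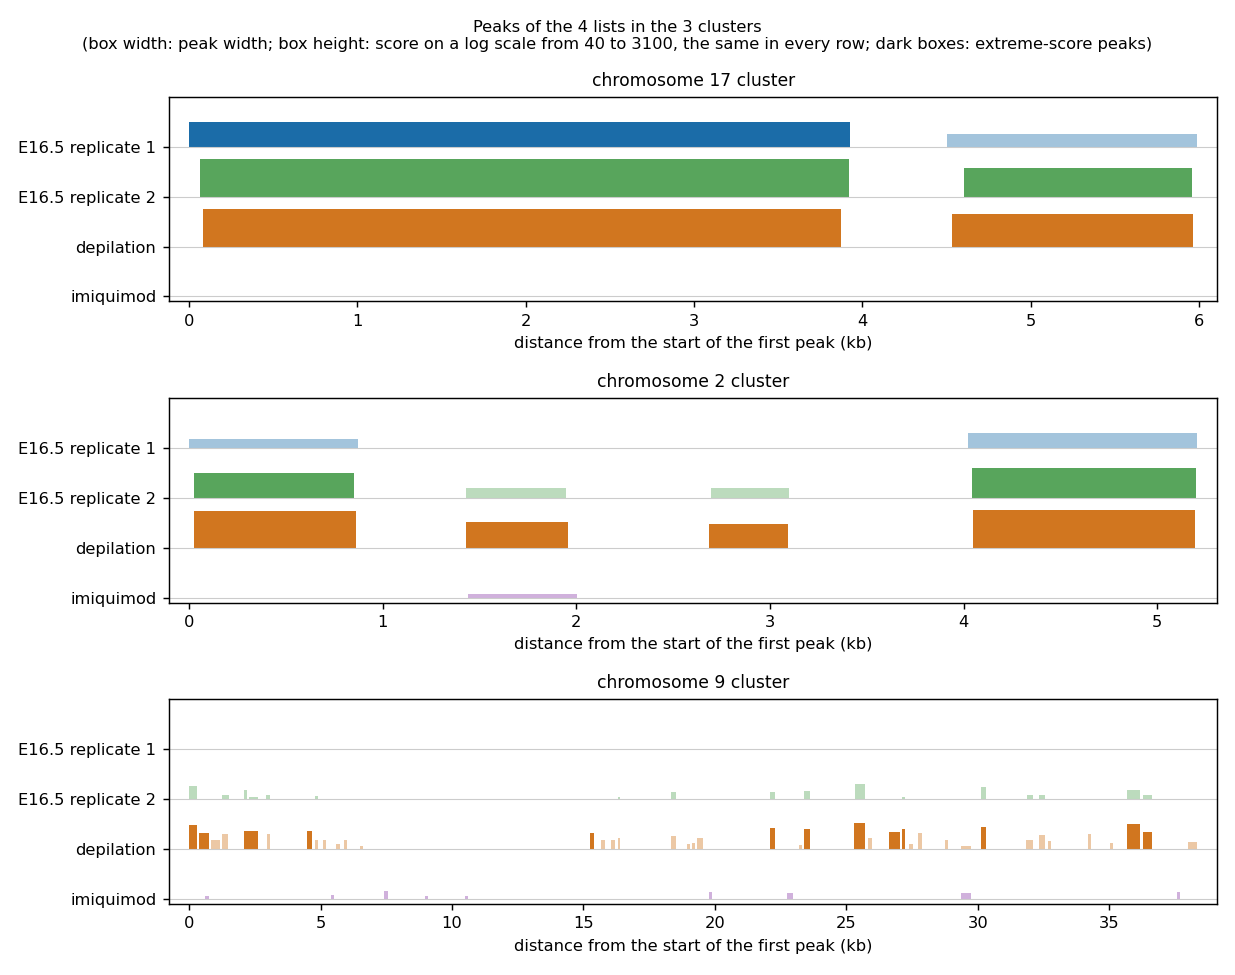
Peaks of the 4 lists in the clusters on chromosomes 17, 2 and 9, drawn as boxes against the distance in kb from the first peak of each cluster. Box height is the score on a log scale and dark boxes are extreme-score peaks. Each box of E16.5 replicate 2 has a depilation box at its place, E16.5 replicate 1 has 0 peaks on chromosome 9 and imiquimod has 0 on chromosome 17.

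Borders of the extreme depilation peaks on chromosomes 2 and 9 lay mostly within a few bp of those in E16.5 replicate 2. Those on chromosome 17 lay farther apart. Where 1 extreme depilation peak met 1 replicate 2 peak in the chromosome 9 cluster, starts differed by a median of 2 bp. The ends differed by 2.5 bp (8 pairs). On chromosome 2 the medians were 1.5 and 8.5 bp (4 pairs). Both borders lay within 20 bp in 7 of the 8 and in 4 of the 4 pairs. Over all 1594 such autosomal pairs, extreme or not, starts differed by a median of 96 bp and ends by 87.5 bp. In 3.45% of them both borders lay within 20 bp. The extreme depilation peaks outside the clusters were in between, with medians of 36.5 and 74 bp and 2 of 12 pairs within 20 bp. On chromosome 17 the 2 pairs differed by 15 and 71 bp at the start and by 45 and 9 bp at the end, and neither had both borders within 20 bp. Between E16.5 replicate 1 and replicate 2, extreme peaks of replicate 1 differed by medians of 141 and 175 bp (95 pairs). Of these pairs, 94 lay outside the clusters. Over all 3451 autosomal pairs of the replicates the medians were 98 and 105 bp. On chromosome 2 the outer depilation peaks differed from their replicate 1 counterparts by medians of 24.5 and 12.5 bp (2 pairs).

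Outside the clusters, 9 isolated loci were extreme in at least 2 lists, and 3 of them carried an imiquimod peak. The locus on chromosome 10 at chr10:25999660-26000310 was the only isolated one extreme in 3 lists. It scored 911.37 in E16.5 replicate 1, 363.37 in replicate 2 and 1061.63 after depilation, and the nearest imiquimod peak was 675272 bp away. A locus at chr9:35112750-35113277 scored 125.09, 739.78 and 2199.6 in the same order, the highest score outside the clusters. At chr3:5860601-5860865 the scores were 128.37, 295.41 and 559.4. At chr11:108872827-108873443 they were 181.24, 408.11 and 298.83. None of these 4 carried an imiquimod peak. All of them were found in the 3 lists, and in 3 of the 4 the embryonic replicates stood on opposite sides of the threshold.

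At the other 5 shared loci the highest score ranged from 303.85 to 505.11. At chr17:36368071-36368675 the scores were 56.5 in E16.5 replicate 1, 505.11 in replicate 2 and 266.36 after depilation. An imiquimod peak there scored 94.33 with 164 tags and a fold enrichment of 4.37. At chr13:120276687-120282099, which joins several peaks, the best scores were 368.72, 309.71 and 131.83, with no imiquimod peak. The extreme peaks there are different ones in the 2 lists, at chr13:120276687-120278112 in replicate 1 and at chr13:120281046-120282099 in replicate 2. The other replicate scored 245.59 at the former and 244.01 at the latter, both below the threshold. At chr11:119774873-119775486 they were 365.33, 151.32 and 253.36, again with none. The loci at chr11:53163782-53164754 and chr10:66589307-66590361 had a peak in all 4 lists. Their imiquimod scores were 192.42 and 180.05, with fold enrichments of 4.54 and 6.34.

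**Figure D2:**
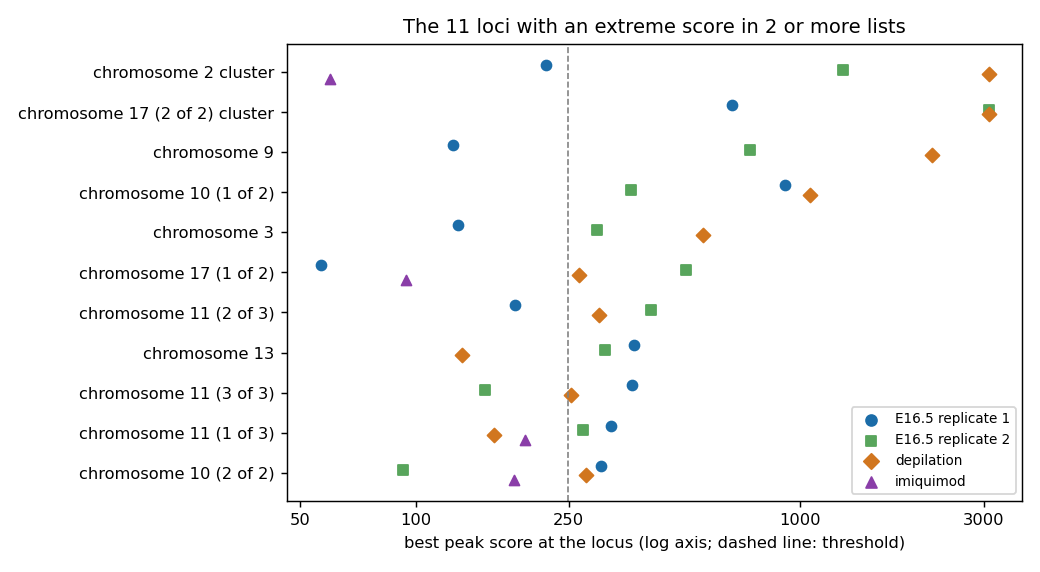
Best peak score (log axis) of each list at the 11 loci with an extreme score in 2 or more lists, 1 row per locus, with the threshold of 249.45 as a dashed line. Of the 5 rows at the top, only the chromosome 2 cluster has an imiquimod point, at 59.77. E16.5 replicate 1 lies at or below 218.57 in 5 of the 11 rows.

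Extreme-score peaks of E16.5 replicate 1 were wide and mostly present in the other lists. Their median width was 1144.5 bp, against 446 bp over all its autosomal peaks, and the narrowest measured 455 bp. Of the 148, 128 were overlapped by a peak of E16.5 replicate 2, or 86.5% (exact Clopper-Pearson 95% interval 79.9 to 91.5), where the share over all autosomal peaks of the list was 32.4%. Depilation peaks overlapped 100, or 67.6% (59.4 to 75.02), against 19.1% over all. Imiquimod peaks overlapped 96, or 64.9% (56.6 to 72.5), against 18.5%. A peak in all 3 other lists was found for 67, or 45.3% (37.1 to 53.7), against 6.54%, and 139 had a peak in at least 1, against 42.7% over all. Width and recurrence were already high just below the threshold. The 262 replicate 1 peaks scoring above 200 and up to 249.45 had a median width of 956 bp. Of these, 80.2% were overlapped in replicate 2, 56.9% in depilation and 59.5% in imiquimod. The intervals cover counting error only. The part of peak width in these shares was not tested. When each peak had to cover at least 50% of the other, the imiquimod share was 20.3% and the share found in replicate 2 or depilation was 43.9% in place of 91.9%. The shares over all autosomal peaks were not computed under this rule, so the backgrounds above do not apply to it.

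Most counterparts of these peaks in E16.5 replicate 2 and depilation scored below the threshold, as every imiquimod counterpart must by the choice of threshold. Their best counterpart in E16.5 replicate 2 had a median score percentile of 89.1 within that list (interquartile range 68.2 to 95.04), against 68.9 for the counterparts of all replicate 1 peaks. Of the 128 counterparts, 3 were themselves extreme, or 2.34% (0.486 to 6.70), against 0.567% for the counterparts of all replicate 1 peaks. The median percentile was 82.3 in the depilation list and 84.1 in the imiquimod list, against 69.6 and 77.7 for all peaks. The wide replicate 1 peaks often held several peaks of another list. That was so for 33 of the 128 found in replicate 2 (25.8%), against 6.75% of all replicate 1 peaks found there, and the most held by 1 peak was 5.

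The best isolated peaks of E16.5 replicate 1 after the chromosome 10 locus showed this pattern one by one. The peak at chr6:94649267-94650351 scored 484.39, with 140.97 in E16.5 replicate 2, 69.06 after depilation and 197.95 after imiquimod. At chr5:43624118-43626452 the scores were 480.04, 92.53, 81.64 and 210.11 in the same order. At chr17:13896989-13898158 they were 464.03, 113.06, 129.93 and 166.58. Each of these 3 was found in all 4 lists and extreme in 1, where an imiquimod peak cannot be extreme by the choice of threshold. The peak at chr6:99641904-99643652 scored 429.72, 228.29 and 53.1, and had no imiquimod peak within 169094 bp. Outside replicate 1, the best isolated peaks extreme in 1 list were chr5:147072472-147072777 after depilation and chr6:148636528-148636628 in E16.5 replicate 2. The former scored 558.15 after depilation, 106.09 in replicate 1 and 211.8 in replicate 2. The latter scored 438.86 and was found in no other list.

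Extreme-score peaks of E16.5 replicate 2 were of 2 kinds by width. In 9 of the 32 the width was 83 to 111 bp, and none of these 9 was overlapped in any other list. The other 23 measured 262 to 3854 bp, and 22 of them were overlapped in at least 1 list. The division was noticed in the widths and was not part of the choice of peaks. The narrow ones lay on 9 autosomes, scored 249.69 to 438.86 and had a median score of 283.12, near the 295.41 of the wider ones. Together, 21 of the 32 were found in E16.5 replicate 1, or 65.6% (46.8 to 81.4), against 41.5% over all autosomal peaks of the list. Depilation peaks overlapped 15, or 46.9% (29.1 to 65.3), against 16.2%. Imiquimod peaks overlapped 7, or 21.9% (9.28 to 39.973), against 15.9%, a background inside that interval. At least 1 other list held 22 of the 32, or 68.8%, against 44.0% over all. All 3 held 4, or 12.5% (3.51 to 29.0), against 7.44%, again a background inside the interval. Where found after depilation, the counterpart had a median percentile of 99.5, against 71.7 for all peaks, and 9 of the 15 were themselves extreme, against 1.95% for all peaks.

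Extreme-score depilation peaks were mostly found in E16.5 replicate 2. Of the 32, 28 were overlapped in E16.5 replicate 2, or 87.5% (71.0 to 96.5), against 34.1% over all autosomal depilation peaks. In E16.5 replicate 1 it was 14, or 43.8% (26.4 to 62.3), against 50.8%. Imiquimod peaks overlapped 5, or 15.6% (5.28 to 32.8), against 26.6%. At least 1 other list held 29, or 90.6%, against 55.7%, and all 3 held 3, or 9.38%, against 15.3%. The backgrounds for replicate 1, imiquimod and all 3 other lists lie inside the intervals. The chromosome 9 cluster alone supplied 13 of the 32 peaks. Outside the clusters 13 of 13 were found in replicate 2, 10 in replicate 1 and 3 in the imiquimod list. When peaks with borders up to 1 kb apart counted as shared, the imiquimod share was 40.6%. The share over all autosomal depilation peaks was not computed under that rule. Over the 3 lists, 9 of the 24 cluster peaks lay within 1000 bp of an imiquimod peak without an overlap, against 3 of 188 outside. Of these 9, 3 lay in the chromosome 2 cluster and 6 in that on chromosome 9. The same share over all autosomal peaks was not computed. The median width of the extreme-score depilation peaks was 405.5 bp, against 205 bp over all autosomal depilation peaks, with a range from 131 to 3794 bp.

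**Figure D3:**
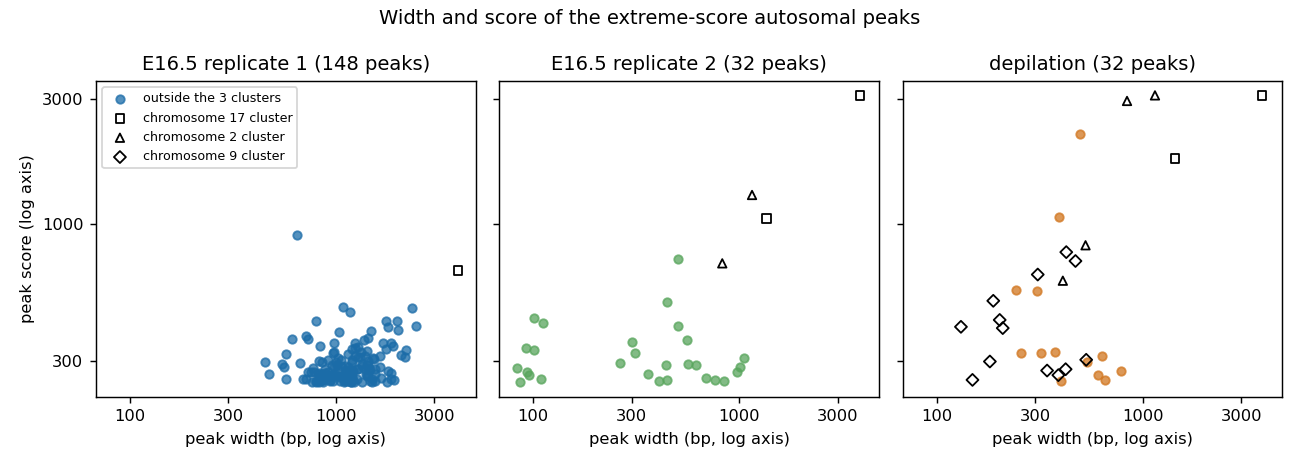
Width in bp against score, both on log axes, for the 148, 32 and 32 extreme-score peaks from the embryonic replicates 1 and 2 and from depilation, 1 point per peak. Cluster peaks have open black symbols. The 9 narrow peaks of E16.5 replicate 2 stand apart at 83 to 111 bp, and replicate 1 has no peak narrower than 455 bp.

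Recurrence in the imiquimod list was higher at higher scores over most of the range, and above the threshold it differed between the lists. Among autosomal depilation peaks, 17.9% (16.7 to 19.2) were overlapped by an imiquimod peak at scores up to 75. The share was 66.1% (53.0 to 77.7) at scores above 150 and up to 200, 26.7% (7.79 to 55.1) above the threshold up to 400, and 5.88% (0.149 to 28.7) above 400. Of the 17 depilation peaks above 400, 13 were neighbours in the 3 clusters, so they are not independent and the intervals make no test between bands. The share of depilation peaks found in E16.5 replicate 2 was 25.2% up to 75 and 17 of 17 above 400 (80.5 to 100). The share of them found in E16.5 replicate 1 was also lower above the threshold. It was 88.7% (78.1 to 95.3) at scores above 150 and up to 200. Above the threshold it was 40% (16.3 to 67.7) up to 400 and 47.1% (23.0 to 72.2) above 400. In E16.5 replicate 1 the imiquimod share was 6.19% (5.61 to 6.80) up to 75, 65.2% (56.6 to 73.1) from the threshold up to 400 and 60% (26.2 to 87.8) above 400. In E16.5 replicate 2 it was highest above 200 and up to the threshold, at 38.9% (25.9 to 53.1), and 11.1% (0.281 to 48.2) above 400, where 9 peaks remain. The score bands were set with the values in view.

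**Figure D4:**
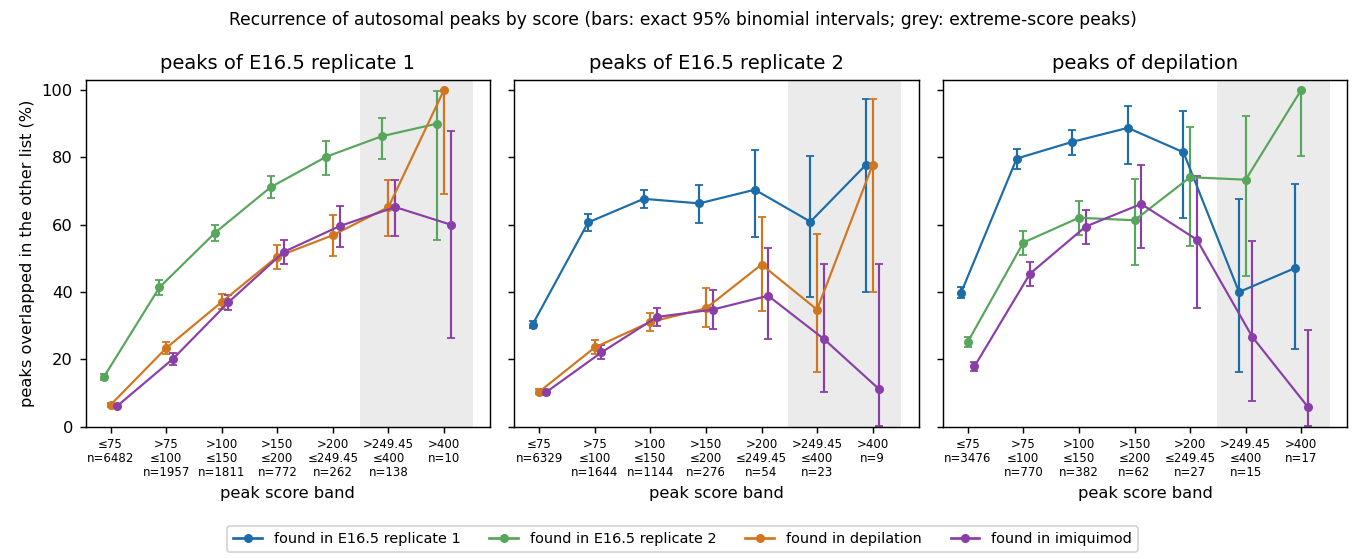
Share of autosomal peaks overlapped in another list (%) by score band, 1 panel per list, with exact 95% binomial intervals and the number of peaks under each band. Extreme-score bands are shaded. In E16.5 replicate 1 the imiquimod share goes from 6.19% in the lowest band to 65.2% and 60% in the shaded ones, and for depilation peaks above 400 it is 5.88%.

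Distances to the nearest imiquimod peak differed between the clusters. Of the 212 extreme-score peaks, 108 were overlapped by an imiquimod peak, or 50.9% (44.0 to 57.9), against 19.04% of all 25660 autosomal peaks of the 3 lists. Without E16.5 replicate 1, which supplied 148 of them, that share was 18.8% (10.1 to 30.5), near the 19.5% of all autosomal peaks of the other 2 lists. Over the 3 lists together it was 106 of 188 outside the clusters, or 56.4% (49.0 to 63.6), and 2 of 24 inside, or 8.33% (1.03 to 27.0). The lists are mixed in this contrast. E16.5 replicate 1 supplied 96 of the 106 overlaps outside, and depilation 19 of the 24 cluster peaks. Within depilation the overlaps were 3 of 13 outside and 2 of 19 inside, with wide intervals that overlap. Within E16.5 replicate 2 they were 7 of 28 and 0 of 4. Cluster peaks without an overlap were either close to an imiquimod peak or far from one. On chromosomes 2 and 9 each of the 17 lay within 5000 bp, and on chromosome 17 each of the 5 lay beyond 100000 bp. Outside the clusters, 3 peaks lay within 1000 bp without an overlap and 75 lay beyond 5000 bp. The median distance over all peaks was 0 bp in E16.5 replicate 1, 54185.5 bp in replicate 2 and 2093.5 bp after depilation. Over all autosomal peaks of these lists the medians were 72238.5, 75197 and 51120 bp. The depilation median rests on the clusters: outside them it was 97824 bp over 13 peaks, above that of the whole list.

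**Figure D5:**
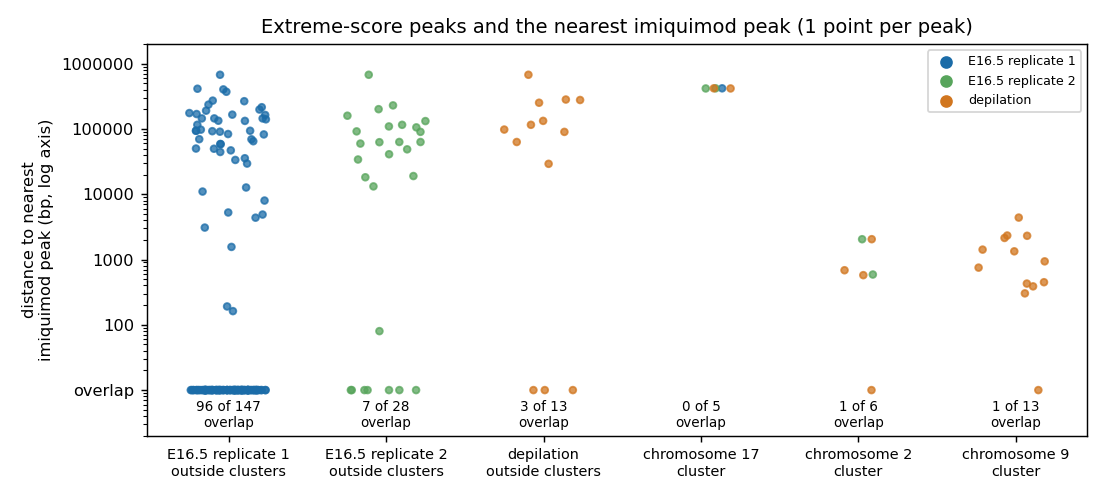
Distance in bp (log axis, overlapping peaks drawn at the bottom) from each extreme-score peak to the nearest imiquimod peak, 1 point per peak, coloured by list. Overlaps number 96 of 147, 7 of 28 and 3 of 13 outside the clusters, and 0 of 5, 1 of 6 and 1 of 13 in those on chromosomes 17, 2 and 9.

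Imiquimod peaks on extreme-score peaks held more tags than the median of the whole imiquimod list, at a similar fold enrichment. The 126 distinct imiquimod peaks outside the clusters that touched one had a median of 52 tags (interquartile range 40 to 74.2), against 29 in the whole list. Their median fold enrichment was 6.21 (5.43 to 6.998), against 6.65, and their median width 424 bp, against 277 bp. Tags, fold enrichment and width were not computed for imiquimod peaks that lay on other peaks of the lists. By score percentile, imiquimod counterparts of all E16.5 replicate 1 peaks had a median of 77.7. Those of its extreme-score peaks had 84.1, and the whole list 50.0. Of the 100 autosomal imiquimod peaks with the most tags, 16 lay on an extreme-score peak. Of the 100 with the highest fold enrichment, 2 did, and the share over all autosomal imiquimod peaks was 1.61%. The highest fold enrichment at an extreme-score peak was 10.92, with 60 tags, at chr2:28061063-28062003. That peak scored 254.6 in E16.5 replicate 1 and had no counterpart in replicate 2 or after depilation.

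The remaining 9 of the 10 loci with the highest imiquimod fold enrichment ranged from 7.95 to 10.56. They included chr1:38892549-38893683 at 10.56, chr1:38683780-38684754 at 9.88 and chr7:87832936-87833954 at 9.52. At chr10:17774967-17776186 the fold was 9.06, at chr7:133415792-133416364 9.02 and at chr2:167513956-167515741 8.86. At chr2:168056099-168057169 it was 8.51, at chr5:141717330-141717983 8.44 and at chr8:73222606-73223789 7.95. Of these 9, the chromosome 5 locus was extreme after depilation, with 255.22, and the rest in E16.5 replicate 1, with scores from 250.53 to 406.02. All 9 had a peak in E16.5 replicate 2 and 7 had a depilation peak. None of them was among the clusters or extreme in 2 lists.

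The peaks nearest the threshold differed little in score. Just above it, E16.5 replicate 1 had scores of 249.63 and 249.65 and widths of 1093 and 1185 bp, and just below it 248.85 and 248.73 with 897 and 674 bp. In E16.5 replicate 2 the scores were 249.69 and 251.73 above, with 86 and 409 bp, and 245.59 and 244.7 below, with 561 and 720 bp. After depilation they were 253.36 and 255.22 above, with 402 and 654 bp, and 247 and 244.34 below, with 401 and 119 bp. The peak of 244.34 belongs to the chromosome 9 cluster.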

How the data were processed

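The authors deposited 1 peak list for each Grhl3 library. The submitters' processing notes name Bowtie 0.12.7, bedtools 2.11.2 and mm9. The peak caller, its settings and its use of input were not found in the labels or headers. As deposited, 3 lists hold positions and a peak score of 50 or more. Per the file headers, the deposited imiquimod list gives a count of tags, a fold enrichment ratio and an FDR in percent. Its score column has lost its header and was read as the same kind of score. The threshold, its highest value, depends on that reading.

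BED starts were raised by 1 bp. An overlap of 1 bp or more made peaks shared, and distances run between edges. A percentile is a rank by score within a list. No test was run: peaks are not replicates and neighbours share a source, so shares have exact Clopper-Pearson 95% intervals for counting error, beside the same share over all autosomal peaks. The overlap functions were tested on simulated data and gave the same counts as bedtools 2.31.1 for 9 of 9 pairs of lists. Named loci are those in the clusters, the 10 best isolated loci, isolated loci extreme in 2 or more lists, the 10 with the highest imiquimod fold, the 5 widest peaks and 2 peaks on either side of the threshold in each list. The extreme-score peaks, the lists and these rules were chosen with earlier results of these data known. Peaks on X and Y (31 above the threshold) were left out. Python 3.11.15, numpy 2.4.6, pandas 2.3.3, scipy 1.17.1 and matplotlib 3.10.9 were used.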

Additional observations from a re-analysis of the deposited data

How the results depend on the processing

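Of 122 combinations of a result and an alternative setting, 89 left the value within its interval or, for counts, within 1.5 times, and 33 moved it further. No paired analysis was possible because no result comes from a test. With a threshold of 200 the set held 555 peaks in 487 loci, the depilation share found in the imiquimod list was 33.9% and the median percentile in other lists 85.4. With a threshold of 400 there were 36 peaks in 20 loci. Then 94.4% of all peaks, 100% of those of E16.5 replicate 1 and 100% of those after depilation were found in another E16.5 or depilation list, and 22.2% in the imiquimod list. The median distance to imiquimod was then 2093.5 bp, the width 589 bp, the percentile 95.9 and the imiquimod fold 5.76. The best 1% of each list gave a median width of 784 bp. Requiring 50% reciprocal overlap gave 53.8% of all peaks and 43.9% of those of replicate 1 in another list, 17.9% and 20.3% in the imiquimod list, and a percentile of 94.9. With centres within 500 bp, 96.9% of depilation peaks were found in another list. With edges within 1 kb it was 100%, and 40.6% were found in the imiquimod list. Without the clusters, 100% of depilation peaks were found in another list. With the better scoring 50% of the other lists, 82.1% of all peaks and 85.8% of those of replicate 1 were found. Imiquimod peaks with a fold of at least 5 lay on 42.0% of all peaks and 55.4% of those of replicate 1. Shares over all autosomal peaks were not recomputed for the overlap rules, the better scoring 50% or the fold limit. Leaving out each E16.5 replicate in turn gave 64 and 180 peaks, 40 and 161 loci, 23 and 20 cluster peaks, 18.8% and 56.1% found in the imiquimod list, 18584 and 0 bp to it, and a fold of 5.58 and 6.20. Without replicate 1 the count, the loci and the imiquimod share thus changed by over 1.5 times, since that list supplied 148 of the 212 peaks. Library depth, the input signal and the copy number of the loci were not measured here.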

Other observations

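Beside the 9 narrow extreme-score peaks, the list of E16.5 replicate 2 held 486 autosomal peaks of at most 111 bp, on all 19 autosomes. Of these 486, 7 were overlapped in any other list, or 1.44% (exact Clopper-Pearson 95% interval 0.581 to 2.95), against 46.3% (45.3 to 47.4) of its 8984 wider peaks, which include 23 extreme ones. The narrow peaks had the higher scores, with a median of 106.275 against 62.77, and 54.9% of them scored above 100, against 13.7% of the wider ones. The list of E16.5 replicate 1 held 0 autosomal peaks of that width. Its narrowest autosomal peak measured 120 bp, against 74 bp in both E16.5 replicate 2 and depilation. The depilation list held 117, of which 18 were found in another list, or 15.4% (9.38 to 23.2), and none scored above 141.26. The width limit was taken from the extreme-score peaks after their widths were seen. No test was run on it and the shares were not adjusted for width.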
